A study of Rattus norvegicus with 10 samples.

Results

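Among 10 rat livers, 150 genes were described whose levels followed, or ran against, the level of Dbp from animal to animal. Dbp encodes D-site albumin promoter binding protein, a transcription factor. The group mean of control and of exposed animals was subtracted from every value, and the Pearson correlation (r) of each gene with the 1 probe set that names Dbp was taken over the 10 arrays. Genes needed a probe set that names a single gene and a mean log2 value of at least 7, and each gene was represented by its brightest such probe set. Of 14217 genes with such a probe set at any level 6086 were eligible, and the 75 with the highest r and the 75 with the lowest r are the 150 genes described here. Each end thus holds 1.23% of the eligible genes by construction. Dbp and its clock and clock-output partners were left out of the choice and are described first as a reference.

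All livers were those of male rats of the outbred Sprague-Dawley stock, in groups of 5 control animals and 5 animals exposed to effluent of bulk drug manufacturers. Total RNA was measured on Affymetrix 3' expression arrays, 1 array per animal, and levels are given on the log2 scale for each probe set, a group of probes that reads 1 transcript. The labels give no age, no dose or length of exposure, and no time of day or feeding state at sampling. The effluent is a mixture, and the labels name no single agent in it. Of 10 listed hepatocyte markers 9 were measured, with mean levels between 12.2 and 14.99 on the log2 scale, whereas 6 of 8 neutrophil, 6 of 7 muscle and fat, and 5 of 8 pancreas markers had means under 5.

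Dbp, Tef and Hlf are PAR bZIP transcription factors that bind D-box elements, and in liver the Dbp transcript has one of the largest daily cycles known. CLOCK and BMAL1 drive Dbp through E-box elements, PER and CRY proteins oppose them, and NR1D1 and NR1D2 repress Bmal1 through ROR elements, so that Dbp and Bmal1 transcripts peak at opposite times of day. NFIL3 competes with the PAR bZIP factors for D-boxes.

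Dbp read 5.80, 6.50, 6.97, 8.67 and 9.34 in control animals 1 to 5 and 7.28, 6.79, 8.65, 8.80 and 9.47 in exposed animals 1 to 5. The animals spanned 12.8-fold, and the groups overlapped between 6.79 and 9.34, with control animals 1 and 2 below every exposed animal and exposed animal 5 above every control. No animal lay between 7.28 and 8.65, with 5 animals (control 1, 2 and 3, exposed 1 and 2) at or below this gap and 5 (control 4 and 5, exposed 3, 4 and 5) at or above it. Because either side of the gap holds fewer than 6 animals, no r is given within them, and r over the 10 animals combines the step across the gap with the order on either side. The difference in Dbp, exposed minus control, was 0.75 (SE 0.67, 95% interval -0.70 to 2.20, limma adjusted p = 0.915), which is within the spread between animals.

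Some core clock genes followed or opposed Dbp closely in the same livers, while others had a weak r. Bmal1 read 8.08, 7.85, 7.72, 7.11 and 6.83 in control animals 1 to 5 and 7.49, 7.60, 7.08, 6.68 and 6.07 in exposed animals 1 to 5. It was highest in the animals with the least Dbp and lowest in exposed animal 5, with r = -0.95. Tef, a close relative of Dbp, had r = 0.90, Cry2 and Nr1d2 each had r = 0.84, Hlf 0.75 and Nr1d1 0.73, while the D-box competitor Nfil3 had r = -0.76. A second probe set of Cry2, with a mean of 7.04, had r of only 0.40, so the strength of its r depended on the probe set. Alas1, the rate-limiting enzyme of haem synthesis and an output of the PAR bZIP factors, had r = 0.93 and the P450 reductase gene Por 0.63. Clock had r = -0.44 and Bhlhe40 0.53. Per2 had r = -0.16 on its brighter probe set and 0.78 on a dimmer one with a mean of 5.94, so its direction depended on the probe set. Below a mean of 7 lay Usp2 (r = 0.94), Bhlhe41 (0.26), Per1 (0.11), Per3 (-0.27), Npas2 (-0.37) and Cry1 (-0.40). All of these r values, like those that chose the 150 genes, are given as descriptions with no test.

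**Figure D1:**
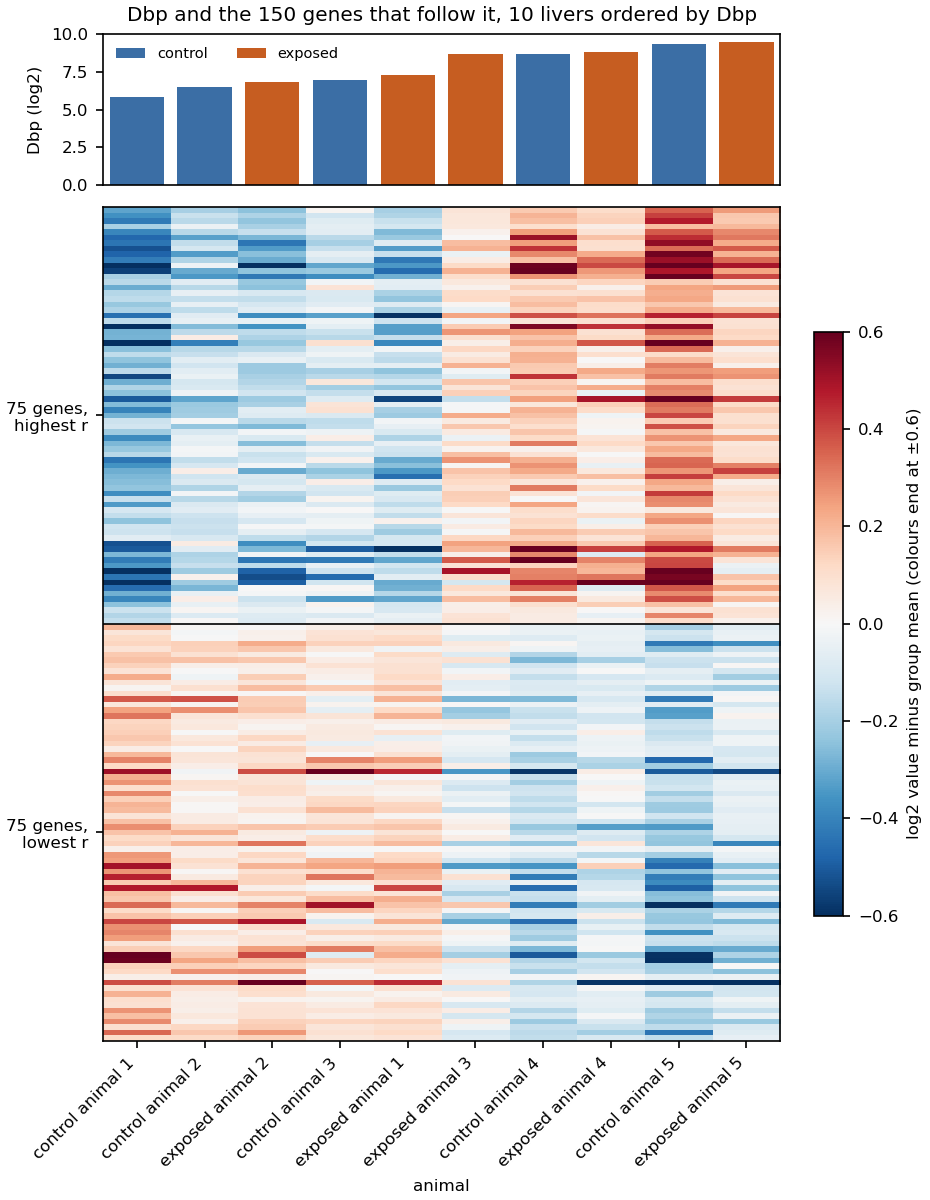
Dbp level (upper bars, log2) and the 150 genes (lower map, 1 row per gene ordered by r, log2 value minus the gene's group mean, colours ending at ±0.6) in the 10 livers ordered by Dbp, blue bars control and orange bars exposed. The 75 genes at the high end pass from blue to red across the gap in Dbp between 7.28 and 8.65, the 75 at the low end pass from red to blue, and colours are strongest in control animals 1 and 5.

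At the high end r ran from 0.865 to 0.982 with a median of 0.892, and at the low end from -0.947 to -0.846 with a median of -0.877. Over all 6086 eligible genes the median r was -0.091. Spearman's rho, which reads only the order of the animals, lay between 0.709 and 1.0 at the high end and between -0.976 and -0.721 at the low end. Without control animals 5 and 1, whose Dbp with group means removed lay farthest from the median, the median r of the same genes was 0.847 and -0.831. The choice cut through a continuous range: Prpf6, Mtdh and Hnrnpu stood just inside the high end at 0.866, 0.865 and 0.865, and Klhl25, Mcur1 and Smndc1 just outside at 0.862, 0.862 and 0.861. At the low end Tnfsf12, Med11 and Mrps7 stood just inside at -0.848, -0.848 and -0.846, and Nek7, Klhl5 and Lamtor5 just outside, each at -0.846. An r of 0.8 or more was reached by 184 eligible genes (3.02%) and one of -0.8 or less by 177 (2.91%), so that many genes like those described were not chosen.

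A high r did not mean a large change. The slope, in log2 units of the gene per log2 unit of Dbp, had a median of 0.140 at the high end (0.047 to 0.485) and of -0.094 at the low end (-0.390 to -0.020). Slopes steeper than 0.25 in either direction were found for 15 genes at the high end and 6 at the low end, and for 62 of the 6086 eligible genes. The slope is r times the gene's spread over that of Dbp. Genes chosen for an extreme r are thus steeper in part by construction, and the counts are no separate result. The spread between animals, as the SD of values with group means removed, had a median of 0.206 at the high end, 0.142 at the low end and 0.119 over all eligible genes. The median r between pairs of genes was 0.848 at the high end and 0.804 at the low end, which the choice of genes by a shared r with Dbp largely fixes. Once the part of each gene that follows Dbp was removed, the median r between pairs was 0.153 and 0.107. The mean over the 75 high-end genes, each set to its own mean over the arrays, ran from -0.31 in control animal 1 to 0.34 in control animal 5 among controls and from -0.20 to 0.14 among exposed animals. The low-end mean ran from 0.23 in control animal 1 to -0.21 in control animal 5 among controls and from 0.11 to -0.14 among exposed animals.

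The promoters of the genes were searched for the elements through which the clock and Dbp act, and those below are shown because they hold one of them. RefSeq promoter sequences (build GRCr8, 250 bases before the gene's start) were matched by Entrez number. A match was found for 62 of the 75 high-end and 61 of the 75 low-end genes. It was found for 12 of the 13 eligible-level genes left out by the rule and for 5173 of the 6086 eligible genes. Letters were searched on both strands. The D-box (TTANGTAA), the element bound by Dbp, was in 0 of 62 high-end and 0 of 61 low-end promoters, in 1.18% of the promoters of eligible genes and in 2.02% of all 27457 promoters. The clock E-box (CACGTG) was in 1 of 62 high-end promoters (1.61%), in 7 of 61 low-end promoters (11.5%), in 8.83% of eligible and in 5.79% of all promoters. The 3 E-box promoters whose genes had the largest absolute r are printed 5' to 3' on the gene's strand, with the motif in capitals. Raly lies at chr3:163766357-163766606 on the + strand with its E-box beginning 29 bases before the start, Get3 at chr19:40034727-40034976 on the + strand with 2 E-boxes, and Sde2 at chr13:95110413-95110662 on the + strand with its E-box beginning 79 bases before the start.
Raly: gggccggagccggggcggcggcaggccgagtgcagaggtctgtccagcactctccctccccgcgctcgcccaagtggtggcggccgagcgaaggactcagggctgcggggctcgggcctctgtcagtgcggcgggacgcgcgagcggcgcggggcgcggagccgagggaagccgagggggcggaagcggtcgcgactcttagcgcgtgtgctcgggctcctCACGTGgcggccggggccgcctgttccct
Get3: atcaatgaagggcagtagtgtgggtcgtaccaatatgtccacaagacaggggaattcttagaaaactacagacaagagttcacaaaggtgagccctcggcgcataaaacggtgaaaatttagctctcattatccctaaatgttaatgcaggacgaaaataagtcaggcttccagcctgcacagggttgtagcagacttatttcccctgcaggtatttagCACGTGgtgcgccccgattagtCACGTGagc
Sde2: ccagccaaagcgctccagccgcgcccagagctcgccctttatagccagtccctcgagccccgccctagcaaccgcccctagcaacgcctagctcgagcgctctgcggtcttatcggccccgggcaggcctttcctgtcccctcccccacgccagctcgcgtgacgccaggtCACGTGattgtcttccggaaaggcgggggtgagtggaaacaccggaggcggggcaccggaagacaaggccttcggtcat
The other low-end promoters with an E-box belonged to Fam167b, Vps37b, Sec11c, Mydgf and Arf5. For comparison, 2 promoters of clock genes left out by the rule show the other elements. Per2 at chr9:99496994-99497243 on the - strand holds the single D-box among the left-out genes, beginning 192 bases before the start, and Bmal1 at chr1:176766078-176766327 on the + strand holds a ROR element (TAGGTCA) beginning 16 bases before the start.
Per2: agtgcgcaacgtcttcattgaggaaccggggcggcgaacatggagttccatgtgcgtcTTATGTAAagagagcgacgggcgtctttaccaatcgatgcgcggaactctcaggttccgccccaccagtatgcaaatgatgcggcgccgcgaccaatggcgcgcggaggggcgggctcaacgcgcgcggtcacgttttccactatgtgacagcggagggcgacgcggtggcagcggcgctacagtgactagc
Bmal1: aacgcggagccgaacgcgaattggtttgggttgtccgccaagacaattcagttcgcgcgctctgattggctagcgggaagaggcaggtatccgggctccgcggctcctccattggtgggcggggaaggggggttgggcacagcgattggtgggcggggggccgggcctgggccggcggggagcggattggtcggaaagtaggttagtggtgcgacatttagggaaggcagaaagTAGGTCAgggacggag
Among the 12 left-out promoters 2 held the ROR element, that of Bmal1 (r = -0.95) and that of Por (r = 0.63), whose r had opposite signs. The E-box was in 2 of the 12, those of Tef and Bhlhe40, and not in the window of Dbp itself. The ROR element was in 0 of 62 high-end promoters and in 1 of 61 low-end promoters, that of Prr13, against 1.91% of eligible promoters. The cAMP element (TGACGTCA) was in 2 high-end and 4 low-end promoters, 3.23% and 6.56%, against 3.17%. The GC box (GGGCGGG) was in 58.1% of high-end, 41.0% of low-end and 44.1% of eligible promoters, and median GC content was 64.2%, 58.8% and 60%. The heat shock element was in 0 high-end and 1 low-end promoter, the FOXO element (TGTTTAC) in 2 and 0, TATAAA in 7 and 4, and the ETS element (CCGGAAGT) in 6 and 7, against 0.406%, 2.18%, 6.82% and 8.12% of eligible promoters, while the glucocorticoid and PPAR elements were in 0 promoters of either end. A match of letters is no site of binding, and windows without a match say nothing of elements elsewhere in the gene. Gene span in the RefSeq annotation differed between the ends, with a median of 28357 bases over 74 high-end genes, 11659 bases over 75 low-end genes and 21509.5 bases over 6062 eligible genes. Genes over 50000 bases made up 39.2% of the high end, 13.3% of the low end and 24.4% of eligible genes.

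The high end was led by an exchange factor, a receptor and a scaffold protein. Arhgef26, a guanine nucleotide exchange factor, read 7.48, 7.60, 7.81, 7.95 and 8.15 in control animals 1 to 5 and 7.62, 7.58, 7.90, 7.93 and 8.08 in exposed animals 1 to 5. Its order over the 10 animals, with group means removed, was that of Dbp (r = 0.982, rho = 1.0). Gpr146, an orphan G protein-coupled receptor expressed in liver, read 7.43, 7.67, 7.68, 8.003 and 8.21 in control animals 1 to 5 and 7.58, 7.57, 7.83, 7.89 and 7.92 in exposed animals 1 to 5, with r = 0.977. Anks4b, an ankyrin-repeat scaffold of the brush border, read 9.18, 9.44, 9.53, 9.79 and 10.08 in the controls and 9.58, 9.48, 9.78, 9.86 and 9.87 in the exposed animals, with r = 0.967. In all 3 the 5 animals below the gap in Dbp lay below the 5 animals above it, and controls overlapped exposed animals.

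Grouped by their known functions, a grouping made after the genes were seen, the high end held 19 genes of RNA processing and RNA binding and 15 transcription factors and chromatin regulators. How many of the eligible genes have these functions was not counted, so the numbers are no measure of enrichment. Among the RNA-processing genes, Srsf5, a serine/arginine-rich splicing factor, read 8.60, 8.74, 8.91, 9.58 and 9.51 in control animals 1 to 5 and 8.80, 8.75, 9.03, 9.20 and 9.34 in exposed animals 1 to 5. It was lowest in control animal 1 and highest in control animals 4 and 5 (r = 0.965, slope 0.267). Ddx5, a DEAD-box RNA helicase and transcriptional coregulator, read 9.82, 10.24, 10.21, 10.78 and 10.68 in the controls and 9.89, 9.89, 10.43, 10.32 and 10.59 in the exposed animals (r = 0.954). Rbm39, a splicing factor, read 8.83, 8.68, 8.66, 9.30 and 9.68 in the controls and 8.77, 8.64, 9.17, 9.28 and 9.47 in the exposed animals (r = 0.935). In Rbm39 the 5 animals below the gap lay between 8.64 and 8.83 and the 5 above it between 9.17 and 9.68. Wdr33, a subunit of the polyadenylation complex, had r = 0.967 with a slope of 0.110, and Sde2, Son, Prpf6 and Hnrnpu, which act in splicing or nuclear RNA organisation, had r of 0.927, 0.885, 0.866 and 0.865. Eif2ak2, the double-stranded RNA-activated kinase that limits translation, read 6.99, 7.28, 7.23, 7.68 and 7.96 in the controls and 7.46, 7.10, 7.72, 7.63 and 7.76 in the exposed animals (r = 0.960).

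Among the transcription factors were several that hepatocytes depend on. Cebpa, a bZIP factor that maintains hepatocyte gene expression, read 9.83, 10.08, 10.16, 10.99 and 10.87 in control animals 1 to 5 and 10.03, 10.25, 10.70, 10.75 and 10.73 in exposed animals 1 to 5. The 5 animals below the gap lay between 9.83 and 10.25 and the 5 above it between 10.70 and 10.99, with r = 0.941 and a slope of 0.307. The other 4 probe sets of Cebpa had r between 0.877 and 0.961. Cebpb, its acute-phase relative, read 9.17, 9.36, 9.60, 9.93 and 10.33 in the controls and 9.18, 9.52, 9.59, 10.23 and 10.15 in the exposed animals (r = 0.897, slope 0.307). Foxa3, a forkhead factor that opens liver enhancers, read 7.20, 7.71, 7.91, 8.53 and 8.50 in the controls and 7.29, 7.26, 7.77, 8.06 and 7.71 in the exposed animals (r = 0.917, slope 0.321). Klf9, a glucocorticoid and thyroid hormone responsive Krüppel-like factor, read 9.63, 9.89, 10.39, 10.52 and 11.06 in the controls and 9.97, 10.13, 10.40, 10.74 and 10.57 in the exposed animals (r = 0.908, slope 0.311), and was highest in control animal 5. Rbpj, the DNA-binding partner of Notch, had r = 0.947, the repressor Klf12 0.951, the lysosomal regulator Tfe3 0.926, and Nfia, the thyroid hormone receptor gene Thrb and Onecut2 between 0.867 and 0.868. The chromatin regulators Kmt2e and Arid1a had r of 0.893 and 0.880. The 15 transcription factors and chromatin regulators had a median slope of 0.194, the 19 RNA-processing genes one of 0.140.

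Hsd17b2, which oxidises estradiol and testosterone to less active steroids, had the steepest slope of the high end at 0.485. It read 10.78, 11.92, 11.64, 12.54 and 12.89 in control animals 1 to 5 and 12.19, 11.87, 12.65, 12.93 and 13.03 in exposed animals 1 to 5. It was lowest in control animal 1 and highest in exposed animal 5 (r = 0.947). Ccnd1, cyclin D1 of the G1 phase, followed with a slope of 0.355. It read 8.78, 9.36, 9.46, 10.04 and 10.25 in the controls and 9.29, 9.10, 9.49, 10.38 and 9.71 in the exposed animals (r = 0.869), with exposed animal 4 above exposed animal 5. Ahctf1, which encodes the nuclear pore protein ELYS, had a slope of 0.321 and r = 0.873.

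Genes of signalling and protein turnover made up much of the rest of the high end. Prkab1, a regulatory subunit of AMP-activated kinase, read 9.17, 9.55, 9.29, 9.997 and 10.08 in the controls and 9.08, 9.30, 9.91, 9.997 and 10.08 in the exposed animals (r = 0.921, slope 0.301). The receptor kinase Tgfbr1 had r = 0.908 and Rictor, a subunit of mTOR complex 2, 0.871. The deubiquitinase Usp38 had r = 0.965, and the ubiquitin ligase genes Chfr and Fbxo9 0.932 and 0.928. Herpud1, which serves degradation at the endoplasmic reticulum, read 10.67, 11.13, 10.64, 11.41 and 11.68 in the controls and 11.10, 10.63, 11.26, 11.49 and 11.34 in the exposed animals (r = 0.869). The Hsp40 chaperone gene Dnajb1 had r = 0.874, while its rho of 0.709 was the lowest of the high end.

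**Figure D2:**
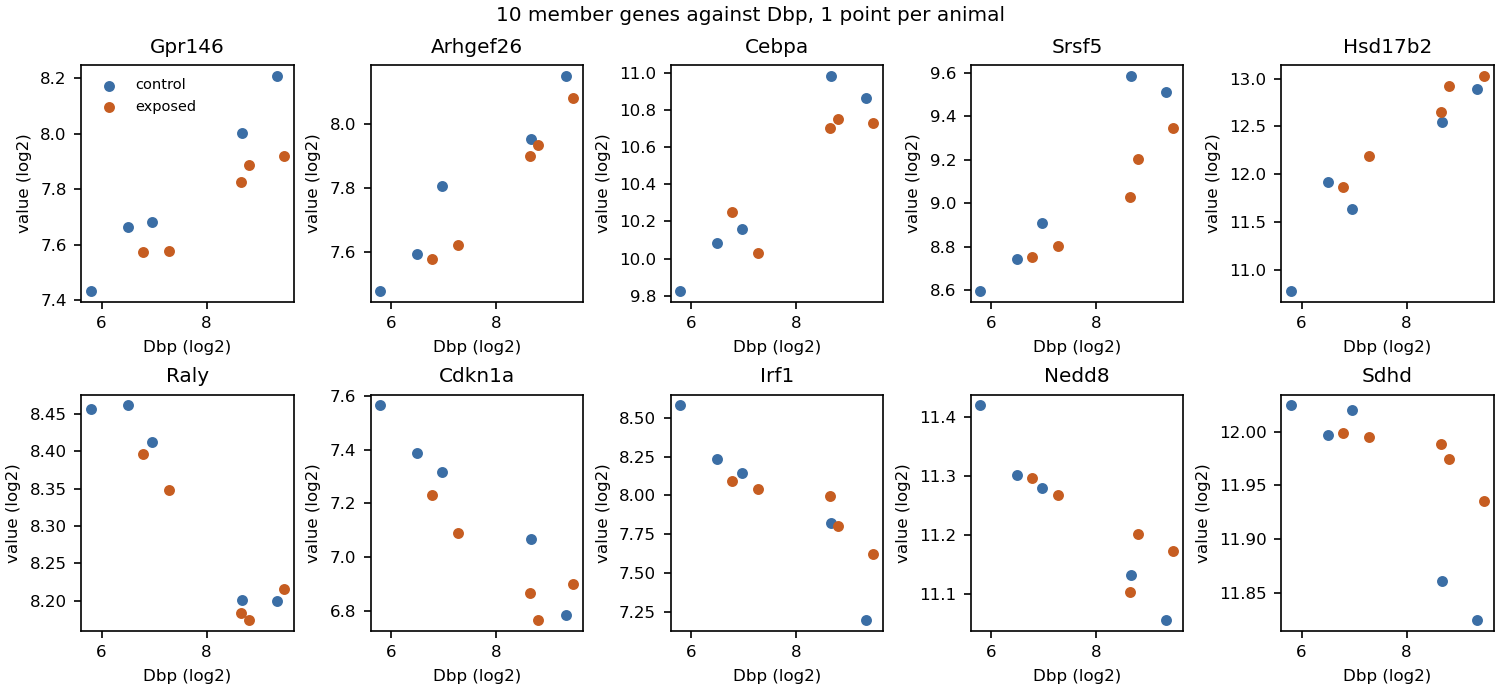
Level of 10 of the 150 genes (y axes, log2, scaled per panel) against Dbp (x axes, log2), 1 point per animal, blue control and orange exposed. The upper 5 genes lie at the high end of r and the lower 5 at the low end. Each panel shows a lower and an upper set of animals with no point between Dbp values of 7.28 and 8.65, and Hsd17b2 runs from 10.78 to 13.03 while Sdhd runs from 11.82 to 12.02.

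At the low end the strongest r belonged to Raly, a heterogeneous nuclear ribonucleoprotein, and Cdkn1a, the cyclin-dependent kinase inhibitor p21, both at -0.947. Cdkn1a read 7.57, 7.39, 7.32, 7.07 and 6.78 in control animals 1 to 5 and 7.09, 7.23, 6.87, 6.77 and 6.90 in exposed animals 1 to 5. It was highest in control animal 1 and lowest in exposed animal 4 and control animal 5, and it lay opposite to Ccnd1 at the other end. Raly read 8.46, 8.46, 8.41, 8.20 and 8.20 in the controls and 8.35, 8.40, 8.18, 8.17 and 8.22 in the exposed animals, all between 8.17 and 8.46. Beside Cdkn1a, 4 further genes that restrain growth or respond early stood at this end, a group formed after the genes were seen. No such group was formed at the high end, so it does not set the ends apart. Rb1, the retinoblastoma gene, had r = -0.908, the antiproliferative gene Btg1 -0.876 and the AMPK-related kinase gene Nuak2 -0.890. Ier2, an immediate early gene, read 8.71, 8.18, 8.80, 7.62 and 7.69 in the controls and 8.68, 8.63, 7.89, 8.28 and 7.69 in the exposed animals (r = -0.868, slope -0.327), with control animal 3 and exposed animal 4 higher than their place in the order of Dbp.

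The low end held 11 genes of the mitochondrion and 6 of the proteasome, NEDD8 and COP9 systems, again grouped after they were seen and without a count over eligible genes. Nedd8, the ubiquitin-like modifier that activates cullin ligases, read 11.42, 11.30, 11.28, 11.13 and 11.06 in control animals 1 to 5 and 11.27, 11.30, 11.10, 11.20 and 11.17 in exposed animals 1 to 5 (r = -0.924, slope -0.081). Cops5, the COP9 signalosome subunit that removes NEDD8, read 10.14, 10.13, 10.03, 9.95 and 9.98 in the controls and 10.12, 10.15, 9.95, 10.02 and 9.92 in the exposed animals (r = -0.913). The proteasome genes Psmd10, Psmd8, Psmd13 and Psmb2 had r of -0.922, -0.868, -0.863 and -0.863. Sdhd, a subunit of respiratory complex II, read 12.02, 11.997, 12.02, 11.86 and 11.82 in the controls and 11.995, 11.999, 11.99, 11.97 and 11.94 in the exposed animals (r = -0.873), with control animals 4 and 5 lowest. The complex I assembly gene Ndufaf7 had r = -0.919, the mitochondrial ribosome genes Mrpl21, Mrpl58, Mrpl33 and Mrps7 -0.900, -0.899, -0.861 and -0.846, the iron-sulphur protein gene Cisd1 -0.858 and the fusion gene Opa1 -0.850. The 11 mitochondrial genes had slopes between -0.172 and -0.046 and the 6 of the proteasome, NEDD8 and COP9 systems between -0.082 and -0.051.

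The low end also held the interferon signalling genes Irf1 and Ifnar2, and genes of cells other than hepatocytes. Interferon genes were not confined to this end. Of 17 eligible genes in the interferon-stimulated list, 11 had r above 0. Eif2ak2, the double-stranded RNA-activated kinase gene, stood at the high end (r = 0.960). Irf1, an interferon-induced transcription factor, read 8.58, 8.23, 8.15, 7.82 and 7.20 in control animals 1 to 5 and 8.04, 8.09, 7.999, 7.80 and 7.62 in exposed animals 1 to 5. Its rho of -0.976 was as low as that of any eligible gene, with r = -0.902 and a slope of -0.269. Ifnar2, a chain of the type I interferon receptor, read 8.87, 8.62, 8.71, 8.37 and 8.36 in the controls and 8.82, 8.82, 8.72, 8.60 and 8.46 in the exposed animals (r = -0.936). Aqp1, a water channel of endothelium and bile ducts, read 8.18, 8.16, 7.69, 7.32 and 7.55 in the controls and 8.28, 8.55, 7.75, 7.93 and 7.80 in the exposed animals (r = -0.895, slope -0.245), and exposed animals 1 and 2 were its highest. Gpr182, a receptor of sinusoidal endothelium, had r = -0.889, the endocytic adaptor Dab2 -0.901, the matrix metalloproteinase Mmp19 -0.942, the leukocyte and platelet protein gene Plek -0.855 and the kinase gene Tec -0.854.

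The steepest slopes of the low end belonged to Lgalsl and Nat8. Lgalsl, a galectin-like gene, read 8.98, 8.90, 8.95, 8.41 and 7.71 in control animals 1 to 5 and 8.63, 8.85, 8.27, 7.59 and 7.57 in exposed animals 1 to 5, with a slope of -0.390 and r = -0.912. It was lowest in exposed animals 5 and 4 and control animal 5. Nat8, an N-acetyltransferase of cysteine conjugates, read 9.81, 8.96, 8.73, 8.30 and 8.21 in the controls and 8.75, 8.93, 8.33, 8.31 and 8.35 in the exposed animals (slope -0.339, r = -0.901), with control animal 1 far above the rest. Enzymes with smaller slopes were Pgk1 of glycolysis (r = -0.868), Dio1, the deiodinase that forms active thyroid hormone (-0.851), and Prodh, which breaks down proline (-0.849). Ppdpf, Snrpe of the spliceosome, Tmbim6 of the endoplasmic reticulum and Get3, which inserts tail-anchored proteins, completed the leading genes with r of -0.923, -0.919, -0.909 and -0.908, and Tmbim6 changed by only -0.023 per log2 unit of Dbp at levels between 13.22 and 13.33.

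Probe sets that the choice did not use gave a second reading of some genes. At the high end 84 further probe sets existed for 43 genes, and 66 had r above 0. Where their mean was at least 7, 31 of 31 had r above 0 with a median of 0.839. At the low end 28 further probe sets existed for 24 genes, and 22 had r below 0. Of the 6 with a mean of at least 7, 5 had r below 0 with a median of -0.676 over the 6. The exception was Tmbim6, whose other probe set, with a mean of 13.001, had r = 0.575, so the direction of Tmbim6 differed between its bright probe sets. The other probe set of Ifnar2, with a mean of 8.07, kept its direction but had r of only -0.259, against -0.936 for the chosen one. Probe sets under a mean of 7 with r past 0.5 in the opposite direction belonged to Galnt2 (-0.539), Tfe3 (-0.569) and Thrb (-0.684). These probe sets measure the same RNA samples, so they are no independent replicates.

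Lists of genes chosen from general knowledge placed the 150 genes in their pathways, with 2669 of all 6086 eligible genes above an r of 0 as the background (43.9%). Nuclear-coded respiratory chain subunits had a median r of -0.596, and 36 of 37 lay below 0, Sdhd being the member among the 150 and Atp5f1b the exception at 0.05. Constitutive proteasome subunits had a median r of -0.419, 27 of 30 lay below 0, and 3 (Psmb2, Psmd13 and Psmd8) were members, while Psma3, Psmc6 and Psmd3 lay above 0. Ribosomal protein genes had a median r of -0.370 with 27 of 29 below 0 and 0 members. The mean score of the respiratory chain list, relative to each gene's mean, was 0.102, 0.008, 0.072, -0.074 and -0.100 in control animals 1 to 5 and -0.018, -0.005, 0.015, 0.010 and -0.010 in exposed animals 1 to 5. That of the ribosomal protein list was 0.122, -0.012, 0.084, -0.053 and -0.161 in control animals 1 to 5 and 0.005, -0.089, 0.009, 0.039 and 0.056 in exposed animals 1 to 5. Among controls both scores were lowest in animals 4 and 5, which had the most Dbp and the highest ratio of 3' to 5' signal. The part of that ratio in these scores was not tested. Over all livers the ribosomal score was next lowest, after control animal 5, in exposed animal 2 (-0.089). That animal had the least Dbp of the exposed animals. Among exposed animals the respiratory chain score showed no fall with Dbp and the ribosomal score was higher in the 3 animals with the most Dbp. Bile acid genes had a median of 0.384 with 15 of 19 above 0, and PPAR-alpha and fatty acid oxidation genes 0.221 with 23 of 25 above 0. A joint list of temperature and heat shock genes had a median of 0.254 with 12 of 18 above 0. Its members were the splicing factor gene Srsf5 and the chaperone gene Dnajb1. Glucocorticoid targets had a median of 0.308 with 9 of 15 above 0 (member Klf9).

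Reported targets of the PAR bZIP factors, mostly drug-metabolising and lipid genes, had a median r of 0.017 over 21 eligible genes, with 0 among the 150. The rule had left out Alas1 and Por, both outputs of these factors, and it took 1.23% of eligible genes at each end, so a list of this size would hold few members. Cyp2c7 and the bile acid enzyme gene Cyp7a1 were highest at 0.68 and 0.63, and Sult1a1 lowest at -0.59. Other genes with a daily rhythm in liver had a median of 0.065 over 29 genes, of which Klf9, Herpud1 and Cdkn1a were members at 0.908, 0.869 and -0.947. The p53 and cell cycle list had 11 eligible genes and a median of -0.227, with Ccnd1 and Cdkn1a at opposite ends. The other pathway lists had medians between -0.284 for immediate early genes (member Ier2) and 0.116 for gluconeogenesis and fasting genes (0 members), with interferon-stimulated genes at 0.068 (member Irf1), endoplasmic reticulum stress genes at 0.101 (member Herpud1) and urea cycle and amino acid breakdown genes at -0.009 (member Prodh). In each of these lists 0 measured genes passed limma's adjusted p of 0.05 for exposed against control, in either direction, as did 0 of all probe sets. At an unadjusted limma p under 0.05 the largest shares were in 2 lists. Of 25 interferon-stimulated genes 9 were higher in exposed livers and 0 lower. Of 22 temperature and heat shock genes 6 were lower and 1 higher. Of all probe sets 3.07% were higher and 2.39% lower, and the lists were not tested as sets.

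**Figure D3:**
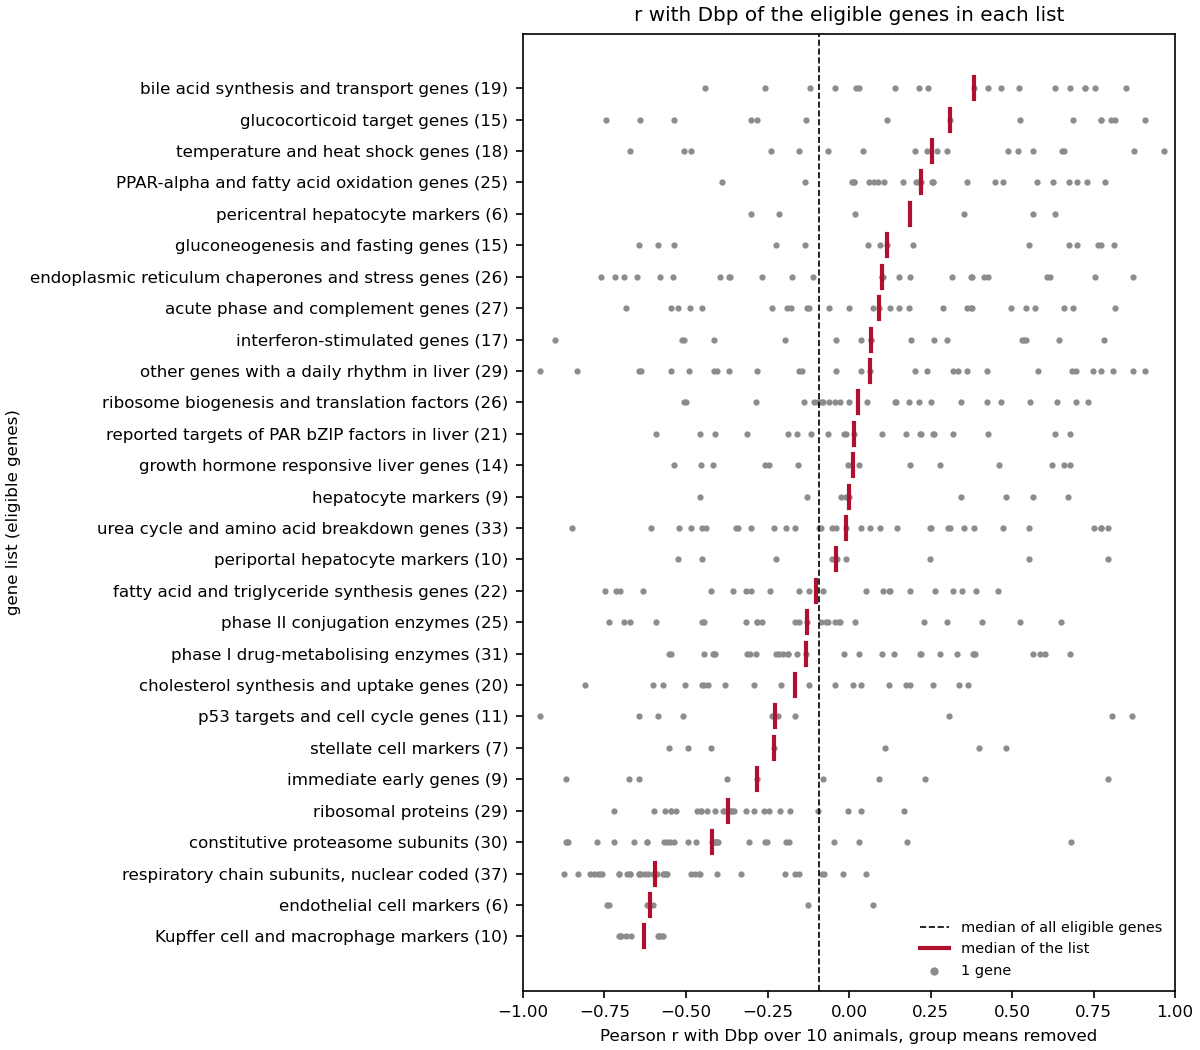
Pearson r with Dbp (x axis, group means removed, 10 animals) of the eligible genes in each gene list (y axis, number of eligible genes in brackets), 1 grey point per gene, red bar the list's median, dashed line the median of all eligible genes at -0.091. The medians run from 0.384 for bile acid genes down to -0.628 for Kupffer cell markers, and single genes at both ends of r appear in lists with medians near 0.

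Markers of Kupffer and endothelial cells, and RNA quality, moved with Dbp in part of the animals. Of the Kupffer cell and macrophage markers 11 of 13 listed were measured, with mean levels between 6.998 and 10.6 and 0 under 5. All 10 of 10 eligible Kupffer cell and macrophage markers had r below 0 (median -0.628), and their mean score per animal, relative to each gene's mean, was 0.10, 0.34, 0.19, -0.28 and -0.86 in control animals 1 to 5 and 0.17, 0.40, -0.54, 0.24 and 0.24 in exposed animals 1 to 5. It was low in control animals 4 and 5 and exposed animal 3, all above the gap in Dbp, but not in exposed animals 4 and 5, which also lay above it. Of 6 endothelial markers 5 had r below 0 (median -0.610), Eng at 0.07 being the exception, and their score ran from -0.12 to 0.20 in controls and from -0.11 to 0.17 in exposed animals. The part of endothelial cells in the r values was not tested. Scores of other marker lists differed in their r with Dbp, given as description only. It was 0.68 for hepatocyte, 0.66 for pericentral and 0.17 for periportal markers. For stellate cell markers it was -0.21, for red blood cell markers -0.03 and for lymphocyte markers -0.67. Of the 12 lymphocyte markers measured, 5 had means under 5. In bulk tissue, fewer cells of a type and less RNA per cell cannot be told apart. After the Kupffer score was removed from both Dbp and each gene, an alternative chosen after seeing the data, 74 of the 150 genes were chosen again, 46 at the high end and 28 at the low end. Of the 150 genes 0 were among the listed Kupffer or endothelial markers.

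The ratio of 3' to 5' signal of the Gapdh and beta-actin control sets, a sign of RNA degradation, was 0.508, 0.578, 0.624, 0.626 and 0.735 (log2) in control animals 1 to 5 and 0.545, 0.604, 0.578, 0.592 and 0.494 in exposed animals 1 to 5. In controls its order was that of Dbp, and in exposed animals the animal with the most Dbp had the lowest ratio. Over the 10 animals its r with Dbp was 0.49. The high-end genes had a median r with the ratio of 0.553 and the low-end genes of -0.543, against 0.005 over all eligible genes. With the ratio removed from Dbp and each gene, 97 of the 150 genes were chosen again. Set against Bmal1 in place of Dbp, the high-end genes had r between -0.951 and -0.679 (median -0.830) and the low-end genes between 0.676 and 0.939 (median 0.816). Dbp and Bmal1 themselves had r = -0.95, so this second set of r values is not independent of the first.

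**Figure D4:**
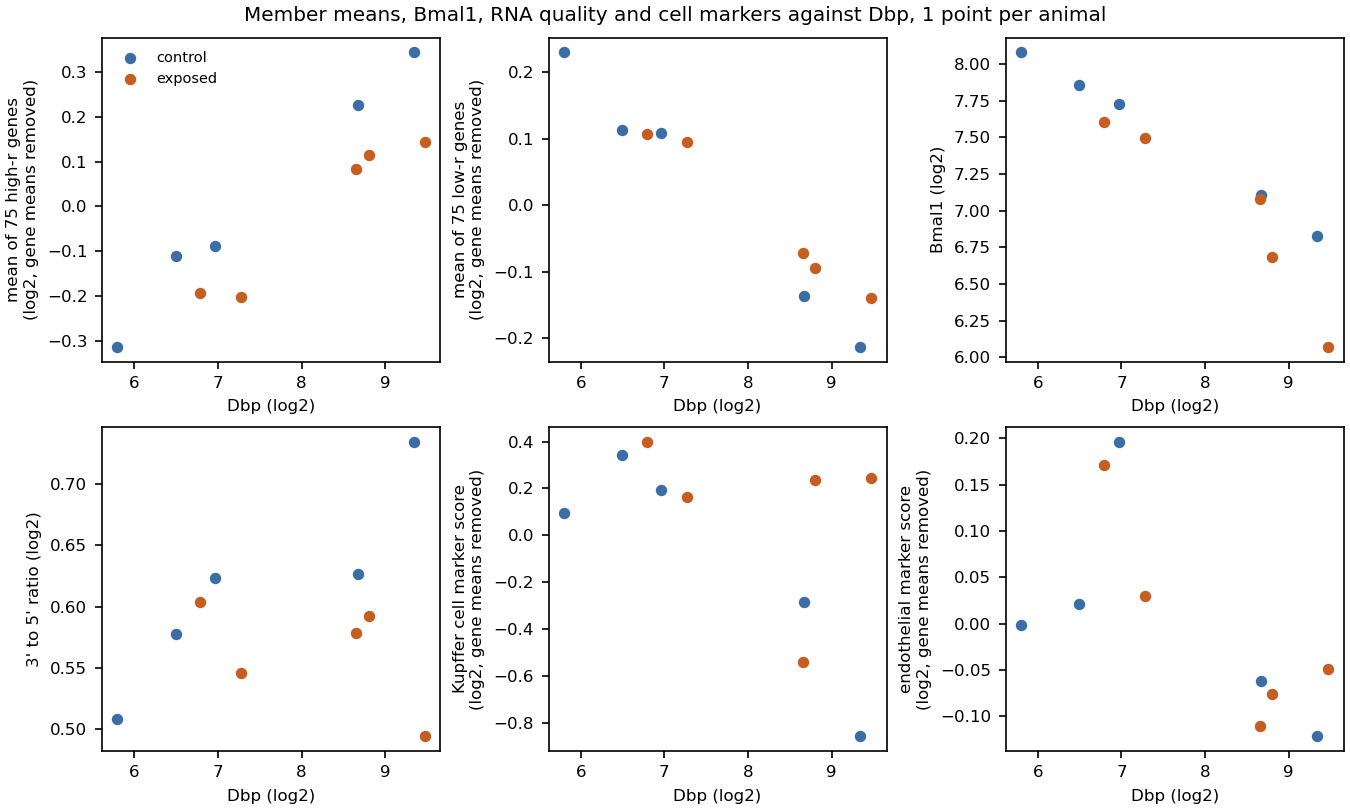
Mean of the high-end genes, mean of the low-end genes, Bmal1, the 3' to 5' ratio, and the Kupffer cell and endothelial marker scores (y axes, log2 units) against Dbp (x axes, log2), 1 point per animal, blue control and orange exposed. Bmal1 falls from 8.08 to 6.07 with rising Dbp, while the 3' to 5' ratio rises with Dbp in controls and is lowest, at 0.494, in the exposed animal with the most Dbp.

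The comparison of exposed with control livers was not used to choose the genes. None of the 150 genes was called at a limma adjusted p of 0.05, and 0 of 31042 probe sets were (0%), the smallest adjusted p being 0.879. At an unadjusted p under 0.05 stood 2 of 150 genes (1.33%), against 1695 of 31042 probe sets (5.46%) and 267 of 6086 eligible genes (4.39%). Both were lower in exposed livers, as were 2.39% of all probe sets, while 3.07% of probe sets were higher at that p. For 0 of 150 genes were the groups free of overlap, against 0.892% of probe sets. The median difference, exposed minus control, was -0.03 at the high end (30 genes higher, 45 lower) and -0.04 at the low end (20 higher, 55 lower). Over eligible genes it was -0.03 with 35.9% higher, so the medians of both ends lay near that background.

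The 2 genes with the smallest p were Dio1 and Srsf4. Dio1 read 7.96, 7.96, 7.82, 7.51 and 7.65 in the controls and 7.59, 7.68, 7.61, 7.32 and 7.39 in the exposed animals, a difference of -0.26 (SE 0.10, 95% interval -0.48 to -0.04, limma adjusted p = 0.879). Srsf4, a splicing factor of the same family as Srsf5, read 8.75, 8.74, 8.77, 9.07 and 9.04 in the controls and 8.43, 8.59, 8.63, 8.80 and 8.76 in the exposed animals, a difference of -0.23 (SE 0.09, 95% interval -0.43 to -0.03, limma adjusted p = 0.879). The next at the high end were the kinase gene Tlk2 (-0.15) and the RNA helicase gene Znfx1 (0.17), and at the low end Cdkn1a (-0.25) and Tec (-0.17), each with an adjusted p of 0.879 or 0.880 by limma. In each of these 6 genes the groups overlapped.

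The largest difference was that of Hsd17b2, 0.58 higher in exposed livers (SE 0.35, 95% interval -0.17 to 1.33, limma adjusted p = 0.882). Control animal 1, at 10.78, was the lowest liver, and without it the difference was 0.29. Lgalsl differed by -0.41 (SE 0.29, adjusted p = 0.894), Foxa3 differed by -0.35 (SE 0.24, adjusted p = 0.894) and Aqp1 by 0.28 (SE 0.19, adjusted p = 0.894), all by limma. The 95% interval of the difference lay within a 1.5-fold change either way for 68 of 75 high-end and 69 of 75 low-end genes. For the other 13 genes a difference past 1.5-fold lay inside the interval. A p above the threshold does not show that the groups were alike.

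**Figure D5:**
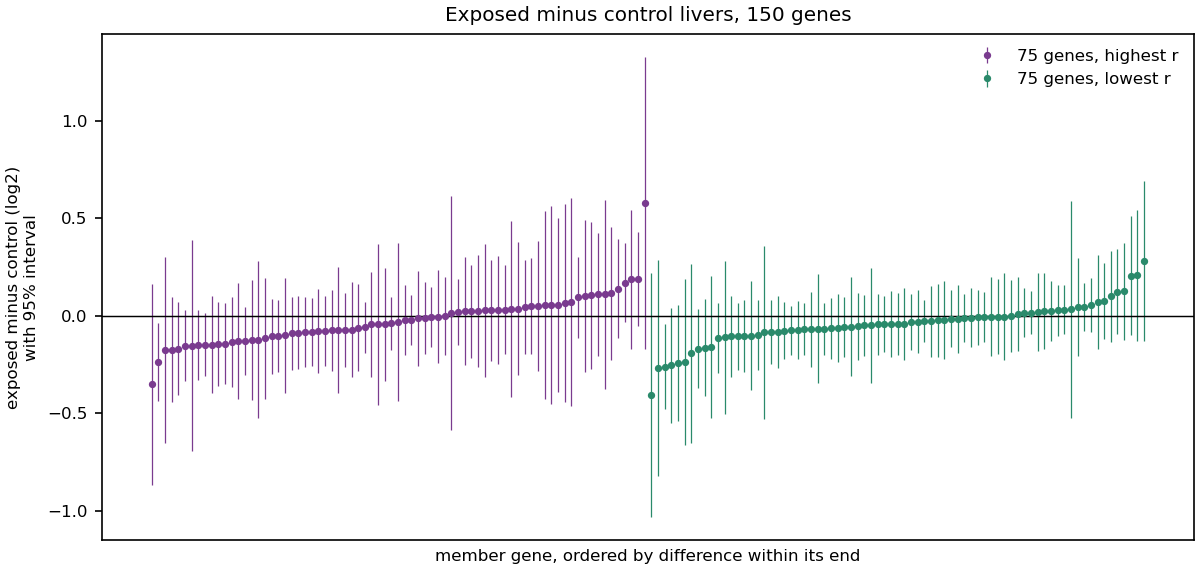
Difference between exposed and control livers (y axis, log2, exposed minus control, bars 95% intervals from limma) for each of the 150 genes, ordered by difference within the high end (purple) and the low end (green). The points run from -0.41 for Lgalsl to 0.58 for Hsd17b2, and 2 intervals, those of Srsf4 and Dio1, leave out 0.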

How the data were processed

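Each deposited value is the log2 level of a probe set. Per the submitters' processing notes, the authors used R 2.8.1 and RMA, which corrects background, brings arrays to a common scale and summarises the probes of a set. A change common to most genes on 1 array is thereby lost. Values between 2.19 and 14.999 fit a log2 scale. Array medians lay between 5.43 and 5.49, pairs of arrays correlated between 0.991 and 0.996, and 0 pairs were identical. The number of arrays limits precision.

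Of 31099 probe sets, 57 control sets were left out and 31042 tested. The platform annotation names 1 gene for 20826 and several for 436, and 20758 were found by Entrez number in a RefSeq table (GRCr8). The genes were chosen with Python 3.11.15 (numpy 2.4.6, pandas 2.3.3), and since r chose them, r, rho and slope carry no p. The exposed and control groups were compared with limma 3.58.1 in R 4.3.3 (lmFit, eBayes, two-sided, Benjamini-Hochberg over 31042 probe sets, threshold 0.05), tested on simulated data first. The 150 genes and all lists were chosen with earlier results of these data known. Named were the clock genes left out, the 15 genes at each end with the most extreme r, at each end the 3 steepest and the 3 with the smallest p, up to 3 members per list, 3 genes either side of each threshold, genes with printed promoters, and genes whose other probe sets oppose them past 0.5. These came to 82, and 22 more were named after their values were seen, as were functional groups and list genes outside the 150. Alternatives changed the array scaling, the filters, the measure of likeness, the variance model, covariates and the animals included.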

Additional observations from a re-analysis of the deposited data

Results flagged for a closer look

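Among 214 groups of 5 animals, formed by the named genes, the RNA quality ratio and the mean of the 75 genes of either end in each treatment group, 3 held an animal that stood apart from the other 4 by a gap above Dixon's critical value of 0.71 of the range. Chance gives about 11. Mrpl33, a mitochondrial ribosome gene of the low end, read 10.72 in exposed animal 2 against 10.55 to 10.58 in the other exposed animals. Prodh, a low-end gene of proline breakdown, read 8.58 in control animal 5 against 9.01 to 9.15 in the other controls, and that animal had the highest Dbp of the controls. Per3, left out by the rule, read 4.81 in control animal 1 against 4.28 to 4.40 in the other controls.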

How the results depend on the processing

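The r values depend on which animals and which measure are used, and r over 10 animals with a gap in Dbp cannot resolve the order of genes that differ in r by a few hundredths. Of the 150 genes, the number chosen again was 87 with Spearman's rho, 93 without subtracting group means, 97 with the 3' to 5' ratio removed, 61 without the 2 animals farthest from the median of Dbp and, in alternatives chosen after seeing the data, 74 with the Kupffer cell marker score removed and 76 with Bmal1 in place of Dbp. Leaving out 1 animal gave 79 to 116, with 79 without control animal 5, 89 without exposed animal 5 and 94 without exposed animal 2. The count was within 1.5 times of 150 for median centring (124) and quantile normalization (112). It was 114 and 103 for a mean of at least 6 or 8, but a change of this filter leaves the r of each gene as it was. With a mean of at least 8, all 51 high-end and 52 low-end genes still eligible were chosen again. The counts for the mean filter therefore do not test how stable r is.

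The labels number both groups 1 to 5 without saying what a number shares. Over all probe sets, deviations of same-numbered animals from their group means correlated between -0.070 and 0.094, so the numbers were not taken as pairs. This does not hold for Dbp itself, which rose with the number in controls and, apart from numbers 1 and 2, in exposed animals. With the replicate number as a block, 9 of the 150 genes were chosen again. Dbp lay on the same side of its group mean for 4 of 5 numbers, and 8.51% of its variation was left within numbers, so that fit reads little of it. The level of Dbp and whatever a number shares therefore cannot be told apart in these animals, and the same holds for the r values of the 150 genes.

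For exposed against control, 0 members were called by limma under any alternative run. Over all probe sets 0 were called, and 0 to 1 when leaving out 1 animal, with 1 without exposed animal 1. Members at an unadjusted p under 0.05 numbered 14 under the replicate block, 8 with the 3' to 5' ratio as a covariate and 1 to 9 when leaving out 1 animal, with 9 without control animal 1 or control animal 5, 4 without exposed animal 2, and 1 without control animal 4, exposed animal 4 or exposed animal 5. The median difference ran from -0.101 to 0.050 at the high end and from -0.089 to 0.006 at the low end, so it has no settled direction. Of 104 named genes, 47 changed sign under at least 1 of 14 alternatives, and 0 moved by over 1 SD. A second Dbp probe set could not be tried, since 1 names Dbp.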

Other observations

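Chromosome 5 held 20 of the 150 genes (13.3%), 9 at the high end and 11 at the low end, against 389 of 6086 eligible genes (6.39%). Among them were Arid1a, Nfia, Srsf4 and Tgfbr1 at the high end and Cops5, Dio1 and Psmb2 at the low end. Chromosome 1 held 16 genes (10.7%, against 12.5% of eligible genes). This share was noticed among 22 chromosomes and was not tested.

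Scores of the proteasome list ran from -0.04 to 0.12 in controls and from -0.05 to 0.02 in exposed animals. Glucocorticoid target genes had a score that rose and fell with Dbp (r = 0.88 over 10 animals, description only), from -0.20 to 0.20 in controls and from -0.10 to 0.09 in exposed animals, although single targets went both ways, with Klf9 at 0.91, Mt2A at 0.81 and the glucocorticoid receptor gene Nr3c1 at 0.80, but Tsc22d3 at -0.74 and Fkbp5 at -0.64.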
